A study of Mus musculus with 30 samples.

Results

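Wild-type mouse spleens exposed to imiquimod were compared with control wild-type spleens across 11982 genes. Imiquimod is a small imidazoquinoline that activates Toll-like receptor 7 (TLR7). The members were the 3 WT spleen libraries whose agent label reads IMIQU and the 3 WT spleen libraries whose agent label reads control, 6 of the 30 libraries in the series. The genes were those with at least 1 RPKM in at least 3 spleen libraries, 11982 of the 24957 symbols in the spleen table. RPKM gives the reads of a gene relative to the length of its transcript and to all reads mapped in that library. The study set WT mice of the FVB inbred strain beside Pad2-/- and Pad4-/- mice, which lack a peptidylarginine deiminase, in TLR7-dependent lupus. Both groups described here are labelled WT, with no allele or other agent named. Spleens had been frozen in a phenol-based RNA reagent, and poly(A) RNA was sequenced from 1 library per sample. The sources used here do not state dose, route, duration of exposure, age or sex. The extract protocol in the labels mentions only mice treated with imiquimod, so the grouping rests on the agent labels alone.

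TLR7 sits in the endosomes of plasmacytoid dendritic cells, B cells and many myeloid cells, where it binds single-stranded RNA or imidazoquinolines and signals through the adaptor MYD88 to NF-kappaB and interferon regulatory factors. The spleen joins a red pulp, in which macrophages clear old red cells and recycle their iron, to a white pulp of B cell follicles and T cell zones, with a marginal zone between them. In mice the red pulp can also host blood formation, above all of red cells, granulocytes and platelets, when demand rises.

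The labelled tissue was checked with marker genes. All 5 markers looked for in each of B cells, T cells, natural killer cells and monocytes or macrophages reached 1 RPKM in every WT library, as did all 7 of neutrophils, all 6 of erythroid cells, all 4 of megakaryocytes and all 4 of plasma cells. The same held for 4 of 5 markers of red pulp macrophages, 2 of 5 of dendritic cells, 1 of 4 of endothelium and 0 of the 3 stromal transcription factors that mark spleen, Tcf21, Tlx1 and Nkx2-5. Of the 5 markers of reticular stroma, 0 reached 1 RPKM in every WT library, and their RPKM summed to 4.68, 3.68 and 2.05 under imiquimod, against 0.598, 0.696 and 0.763 in controls. The stromal chemokine Ccl19 was at 0.187, 0.148 and 0.207 RPKM under imiquimod, against 0.15, 0.0698 and 0.132 in control libraries, and the collagen Col1a1 at 0.0538, 0.0449 and 0.484 RPKM under imiquimod, against 0.248, 0.291 and 0.273 in control libraries. Both genes were therefore close to 0 in all 6 libraries. Of the reticular sum, Cxcl13 alone held 3.8, 2.75 and 0.849 RPKM under imiquimod. Of 22 fibroblastic reticular and matrix genes 5 were tested, and all 5 were higher under imiquimod (limma, adjusted p under 0.05), by a median log2 difference of 2.34. Of 10 capsule smooth muscle genes 4 were tested and 3 were higher, against 40.3% of all genes. Most stromal genes listed were below the expression filter, so little can be read here about the stroma. Markers of pancreas, keratinocytes, skeletal muscle and adipocytes reached 1 RPKM in every WT library for 0 genes of each list.

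The imiquimod libraries held more genes and differed more among themselves. At least 1 RPKM was reached by 11238, 11125 and 11332 genes under imiquimod, against 10912, 10945 and 10905 in controls. The median standard deviation of log2(RPKM + 0.5) within a group was 0.167 under imiquimod and 0.0694 in controls. RPKM summed to 432719, 488094 and 473854 under imiquimod and to 376552, 361059 and 364605 in controls, so the scale of the libraries is not the same in both groups. Haemoglobin genes held 1.77%, 2.26% and 6.85% of that sum under imiquimod, against 0.671%, 0.487% and 1.02% in controls. In a principal component analysis of the 6 libraries the first component, which separated the groups, held 89.3% of the variance and the second 5.54%.

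Most of the measured transcriptome differed between the groups. Differences below are log2(RPKM + 0.5) under imiquimod minus control with the standard error of the fit, n = 3 and 3, and a gene that passed the limma test at an adjusted p under 0.05 is said to have risen or fallen. Of the 11982 genes, 4823 rose (40.3%) and 3984 fell (33.2%), in all 8807 genes or 73.5%, and 2003 rose by more than 2-fold (16.7%) and 891 fell by more than 2-fold (7.44%). The 6 libraries did not overlap between the groups for 9359 genes (78.1%). Counts of list members are therefore read against these shares, and a list with shares near them does not stand apart from the whole table. A gene below 1 RPKM in every WT control met the filter only through other libraries in which it was higher. For such genes the filter favoured a rise, in single values and in list counts. Among the genes named below they include Ccl8, Cxcl10, Il10, Il21, Il27, Gzmk, Erfe and Egfl7. The median difference over all genes was 0.06. The split depended on the scale: after quantile normalization, which moved the median by -0.20, 3868 genes rose and 5390 fell, and with haemoglobin left out and the libraries rescaled, which moved it by -0.27, 3410 rose and 5660 fell. A difference no larger than these shifts thus takes its sign from the scale chosen. In bulk tissue, fewer cells of a type and less RNA per cell cannot be told apart.

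**Figure D1:**
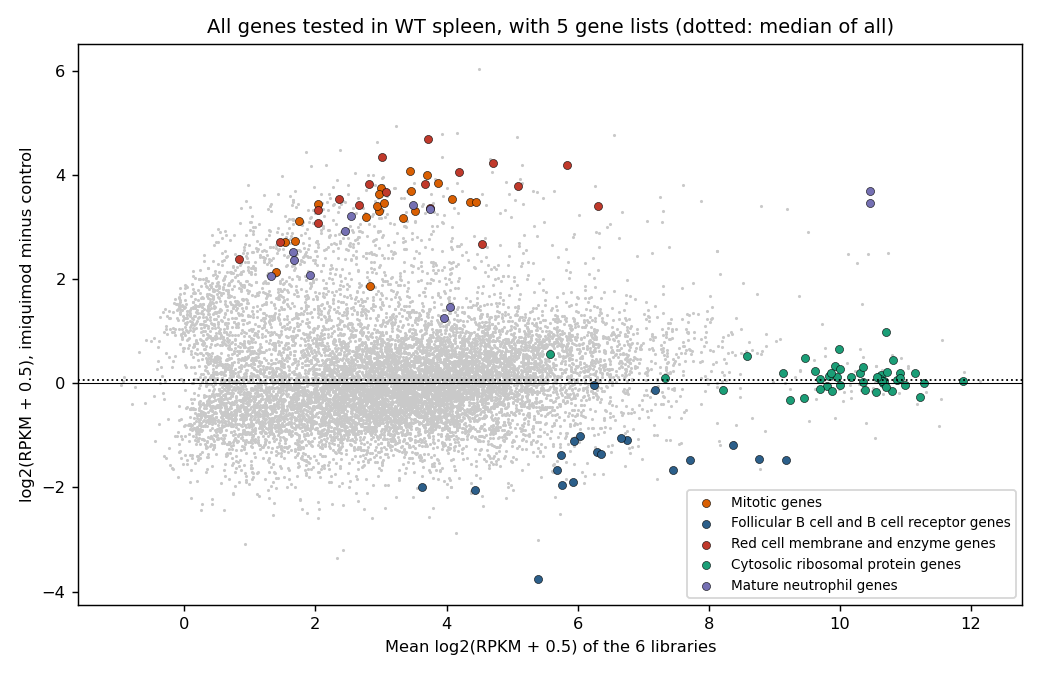
Mean level against the log2 difference, imiquimod minus control, for the 11982 genes, with 5 gene lists coloured and the horizontal axis in mean log2(RPKM + 0.5). The mitotic and red cell genes lie above 0 throughout, while the 45 cytosolic ribosomal protein genes lie between -0.33 and 0.99 at the highest levels, on the scale as deposited.

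The 12 largest rises and 12 largest falls, among genes with no overlap and enough signal, included genes known from macrophages, granulocytes, red cell precursors and B cells. Adamdec1, a metalloprotease of macrophages, was at 61, 30.6 and 71.8 RPKM under imiquimod, against 1.2, 1.38 and 1.0 in control libraries. Slpi, an inhibitor of neutrophil elastase, was at 569, 725 and 284 RPKM under imiquimod, against 13.2, 20.5 and 19.8 in control libraries, and Rhag, a red cell ammonium channel, at 30.6, 20.6 and 73.7 RPKM under imiquimod, against 1.58, 1.35 and 1.02 in control libraries. Each had all imiquimod libraries far above all controls, though replicate 3 was the lowest for Slpi and the highest for Adamdec1 and Rhag. The rest of the 12 rises were Fcgr4, Klf1, Mt1, Mt2, Prtn3, Ctsg, Cldn13, Apol11b and Atp1b2. Among the falls, Cd209d, a lectin of marginal zone macrophages, was at 0.0853, 0.216 and 0.159 RPKM under imiquimod, against 5.12, 4.17 and 5.97 in control libraries. Adh1, an alcohol dehydrogenase, was at 0.578, 0.571 and 0.541 RPKM under imiquimod, against 5.78, 4.92 and 6.22 in control libraries, and Ceacam2, an adhesion molecule, at 0.221, 0.166 and 0.0865 RPKM under imiquimod, against 2.72, 3.07 and 3.37 in control libraries. These 3 genes were nearly lost in every imiquimod library. The rest of the 12 falls were Cr2, Ackr3, S1pr3, Dtx1, Ell3, Vipr1, Cd8a, S1pr1 and Klk1.

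Genes of cell division rose strongly and evenly. Transcripts for mitosis and DNA replication were far more abundant in imiquimod spleens, and the 3 imiquimod libraries lay close to each other. Cdk1, the kinase that drives entry into mitosis, was at 27.6, 27.8 and 31.3 RPKM under imiquimod, against 1.8, 1.84 and 1.44 RPKM in controls. All 3 imiquimod libraries lay far above all 3 controls and close to each other, and the difference was 3.75 ± 0.14 (adjusted p = 3.31e-11). Ccnb1, its cyclin B partner, stood at 42.4, 37.6 and 53.4 RPKM under imiquimod, against 2.47, 2.57 and 1.52 in control libraries, a difference of 4.07 ± 0.18. Bub1b, a spindle checkpoint kinase, was at 26.2, 25.1 and 30.6 RPKM under imiquimod, against 1.8, 1.97 and 1.46 in control libraries, higher by 3.63 ± 0.14 (adjusted p = 3.31e-11). Mki67, which encodes the proliferation antigen Ki-67, reached 55.2, 47 and 72.4 RPKM under imiquimod, against 4.55, 5.02 and 3.87 in control libraries. In each of these genes the groups did not overlap. All 21 of the 21 mitotic genes rose, against 40.3% of all genes, and 21 had no overlap between the groups, against 78.1% of all genes. The list had a median difference of 3.45 and a range from 1.88 for Ndc80, a kinetochore protein, to 4.07 for Ccnb1. Relative to the control mean, the median over the list was 3.33, 3.32 and 3.57 in the 3 imiquimod libraries.

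The promoters of Cdk1 and Bub1b, the 2 mitotic genes with the smallest p among those on other chromosomes than 18, are shown because the list moved as a block. Each runs from 250 bases before to 50 bases after the start in RefSeq (GRCm38.p6), Cdk1 at chr10:69352863-69353162, minus strand, and Bub1b at chr2:118597961-118598260, plus strand. Capitals mark TTTGAA or TTTAAA, the core of the cell-cycle homology region, and CCAAT, the box bound by NF-Y, on either strand.
Cdk1: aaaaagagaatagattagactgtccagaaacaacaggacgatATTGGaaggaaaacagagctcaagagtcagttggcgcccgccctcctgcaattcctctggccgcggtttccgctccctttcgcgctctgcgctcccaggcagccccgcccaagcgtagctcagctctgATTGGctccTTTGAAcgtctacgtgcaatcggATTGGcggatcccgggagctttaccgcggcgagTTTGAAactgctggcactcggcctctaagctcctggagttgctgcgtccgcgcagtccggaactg
Bub1b: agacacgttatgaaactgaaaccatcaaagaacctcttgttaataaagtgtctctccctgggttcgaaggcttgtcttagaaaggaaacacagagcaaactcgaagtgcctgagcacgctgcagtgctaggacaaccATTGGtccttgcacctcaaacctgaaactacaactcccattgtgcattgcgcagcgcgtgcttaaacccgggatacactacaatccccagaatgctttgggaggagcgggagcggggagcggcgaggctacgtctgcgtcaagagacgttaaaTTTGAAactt
Cdk1 held 2 matches to the first motif and 3 to CCAAT, and Bub1b held 1 of each. Of the 21 risen mitotic genes 18 had a promoter in the RefSeq table, and 16 of these held TTTGAA or TTTAAA and 14 held CCAAT. Over the 9321 tested genes with a promoter the shares were 22.5% for TTTGAA or TTTAAA and 43.2% for CCAAT, and over all 32851 promoters in the table they were 27.6% and 37.4%. A match describes the letters in this window and does not show that a factor binds there.

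Genes of DNA replication rose with those of mitosis. All 27 of 27 tested replication genes rose, by a median of 2.28. Rrm2, the regulated subunit of ribonucleotide reductase, was at 104, 80.6 and 139 RPKM under imiquimod, against 5.7, 6.68 and 5.18 in control libraries, a difference of 4.06 ± 0.20. Cdc6, which loads the replicative helicase, was at 18.5, 12.8 and 21.3 RPKM under imiquimod, against 1.02, 1.15 and 0.886 in control libraries, higher by 3.54 ± 0.21. Mcm6, a subunit of that helicase, was at 59.7, 46.5 and 64.1 RPKM under imiquimod, against 7.7, 7.9 and 6.9 in control libraries. All 3 genes had imiquimod libraries several times above every control. The smallest rises in the list were those of Tyms (0.78), thymidylate synthase, and Cdt1 (0.71), a licensing factor.

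Upstream regulators of the cell cycle moved in both directions. Among 16 E2F and retinoblastoma family genes 11 rose and 2 fell, with a median of 0.94. Mybl2, a mitotic gene activator, differed by 3.37 ± 0.20, E2f8, an atypical repressor E2F, by 3.29 ± 0.18, and Foxm1 by 2.3 ± 0.10. The fallen members were Rbl2, the p130 pocket protein of resting cells, at -0.42 ± 0.10, and E2f5, a repressor E2F, at -0.89 ± 0.14. The cyclin E genes, which open S phase, rose: Ccne1 was at 45.3, 28.5 and 63.1 RPKM under imiquimod, against 4.09, 4.46 and 3.48 in control libraries, and Ccne2 differed by 3.1 ± 0.17. Among the D-type cyclins, which read growth signals, Ccnd3 rose by 1.24 ± 0.10, Ccnd1 fell by 0.76, and Ccnd2 differed by -0.18 ± 0.14 and did not pass (adjusted p = 0.242, and 0.0212 without imiquimod replicate 1). Inhibitors of cyclin-dependent kinases also went both ways. Cdkn2c (p18) was at 26.2, 30.1 and 33.1 RPKM under imiquimod, against 3.88, 3.99 and 2.95 in control libraries, Cdkn2a rose by 2.45 ± 0.21 and Cdkn1a (p21) by 2.16 ± 0.12. Cdkn1b (p27), an inhibitor of resting lymphocytes, was at 46.5, 48 and 47.6 RPKM under imiquimod, against 79.5, 74.8 and 77.2 in control libraries, a difference of -0.70 ± 0.06. The antiproliferative gene Btg1 fell by 1.1, with 79.5, 73.8 and 64.8 RPKM under imiquimod, against 161, 151 and 155 in control libraries. The whole list of 16 cyclins, inhibitors and quiescence genes held 7 that rose and 6 that fell, close to the shares of the whole table.

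Supply lines for growth rose too. All 14 of 14 tested genes of serine synthesis, the one-carbon cycle and purine synthesis rose, by a median of 1.12. Psat1, an enzyme of serine synthesis, was at 34.6, 32 and 35.6 RPKM under imiquimod, against 7.0, 7.97 and 7.74 in control libraries, and differed by 2.1 ± 0.10. Mthfd1, a folate enzyme, differed by 2.06 ± 0.25, and Shmt2, the mitochondrial enzyme that turns serine into glycine, by 1.22 ± 0.16. Among 18 glycolysis genes 16 rose and 1 fell, with a median of 1.36. Tpi1, triose phosphate isomerase, was at 163, 182 and 161 RPKM under imiquimod, against 39.1, 36.2 and 34.5 in control libraries, higher by 2.19 ± 0.09. Hk3, the hexokinase of myeloid cells, differed by 2.79 ± 0.33, and Slc16a3, a lactate exporter, by 2.89 ± 0.22. The glucose transporter Slc2a1 fell by 0.43, and Slc2a3 differed by 0.29 ± 0.20 and did not pass, except without imiquimod replicate 1 (adjusted p = 0.000269). Of 19 cholesterol synthesis genes 14 rose and 1 fell, with Fdps, farnesyl diphosphate synthase, at 39.3, 39.8 and 41.2 RPKM under imiquimod, against 11.1, 11.5 and 12.1 in control libraries. The fallen gene was Srebf2, which encodes the activator of this pathway, at -0.39 ± 0.13, and it did not pass without imiquimod replicate 2 (adjusted p = 0.0798). With haemoglobin left out and the libraries rescaled, 9 cholesterol genes rose and 3 fell.

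Respiratory chain and proteasome genes rose by small and even amounts. All 25 of 25 tested subunits of oxidative phosphorylation and all 22 of 22 constitutive proteasome subunits rose, by medians of 0.90 and 0.94. Cycs, cytochrome c, was at 47.9, 56.8 and 53.1 RPKM under imiquimod, against 20.7, 20.4 and 20.4 in control libraries, and the proteasome subunit Psma5 at 82.8, 88.2 and 86.1 RPKM under imiquimod, against 35.7, 32.7 and 36.2 in control libraries. The lists' medians were 0.87, 0.98 and 1.03 for oxidative phosphorylation and 0.91, 0.98 and 1.0 for the proteasome in the 3 imiquimod libraries, relative to the control mean. Both lists kept their sign after quantile normalization, at 0.49 with 24 genes risen and at 0.52 with 22 risen. With haemoglobin left out and the libraries rescaled they stood at 0.61 with 23 risen and 0.65 with 21 risen.

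Cytosolic ribosomal proteins made the contrast. Of 45 ribosomal protein genes 10 rose and 2 fell, with 0 fallen without imiquimod replicate 3, control replicate 1 or control replicate 3, and their median of 0.10 turned to -0.17 after quantile normalization, with 3 risen and 24 fallen. The differences of the list ran from -0.33 to 0.99. Rpl41, among the 10 most abundant genes of both groups, rose by 0.83 ± 0.13, with 3902, 4381 and 3761 RPKM under imiquimod, against 2355, 2142 and 2273 in control libraries. Rpl13 was at 2504, 2577 and 2374 RPKM under imiquimod and 2635, 2416 and 2405 RPKM in controls, with overlapping groups and a 95% interval of the difference from -0.22 to 0.22. Over all genes, 447 (3.73%) had an interval within 0.25 of 0 on the log2 scale, and the 10 most abundant of them included Rpl13, Rpl19 and Rps10, followed by Aes, Hnrnpf, Dazap2, Eif4g2, Sfpq and Ppp6r1, all on the scale as deposited. With haemoglobin left out and the libraries rescaled, all 10 passed as falls, with Rpl13 at -0.29 and Hnrnpf at -0.20. Of 15 cytosolic chaperone genes 9 rose and 2 fell, by a median of 0.39 that turned to -0.04 after quantile normalization, where 4 rose. Leaving out imiquimod replicate 3, control replicate 1 or control replicate 3 left 1 fallen.

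**Figure D2:**
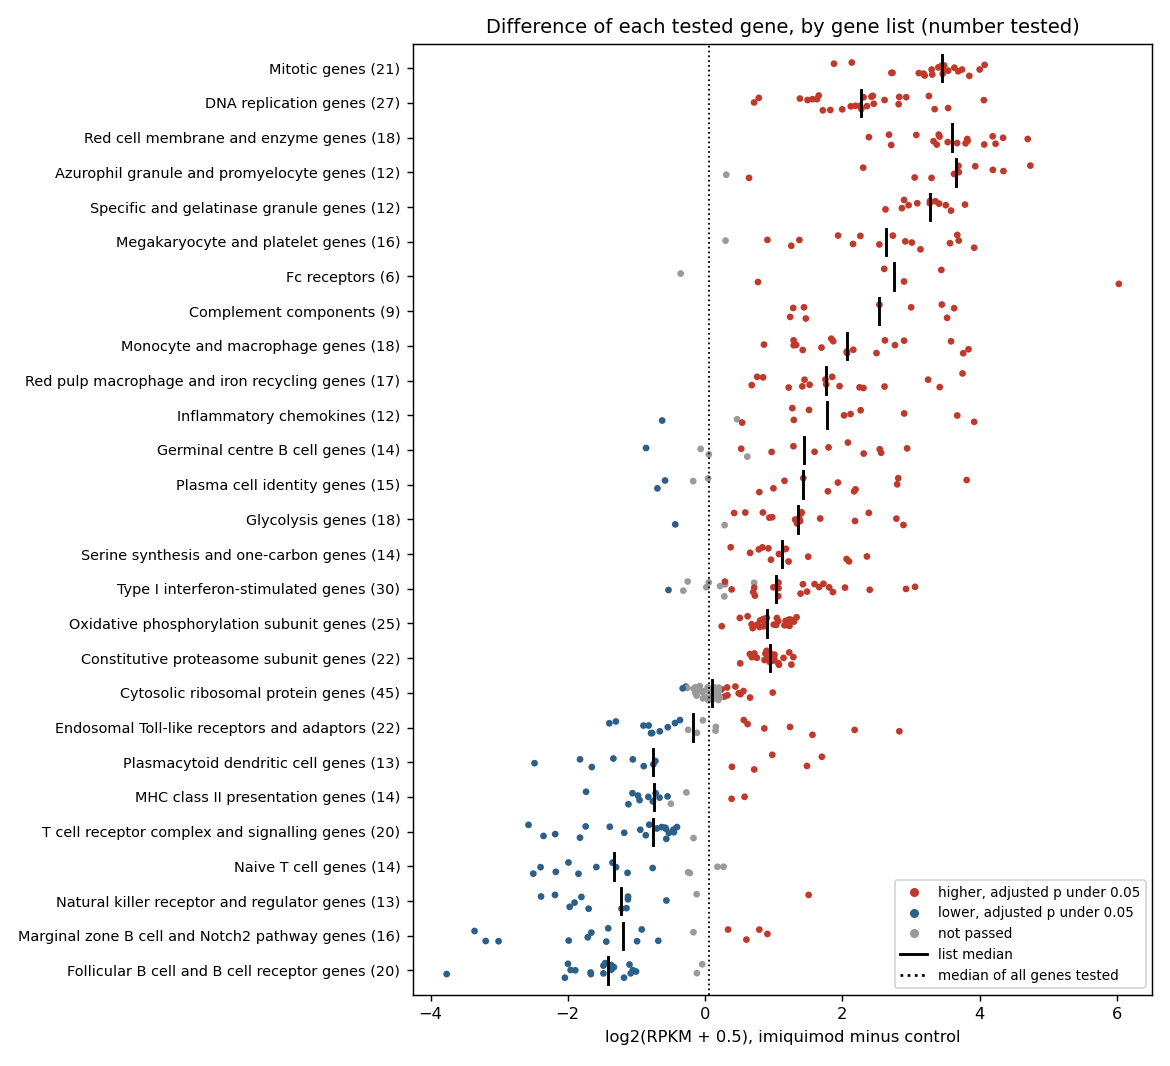
Log2 differences, imiquimod minus control, of the tested members of 27 gene lists, one point per gene, with the list median as a bar and the median of all genes as a dotted line. Among these lists the azurophil granule, red cell and mitotic genes have the highest medians, and the follicular B cell, naive T cell and natural killer genes the lowest.

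Metallothioneins were among the largest rises. Mt1 and Mt2 encode small cysteine-rich proteins that bind zinc and copper, and are induced by zinc, by glucocorticoids and by acute phase cytokines. Mt1 was at 95.5, 81.1 and 185 RPKM under imiquimod, against 6.15, 5.64 and 3.99 RPKM in controls, a difference of 4.32 ± 0.29 (adjusted p = 4.74e-09). Mt2 was at 70.3, 53 and 138 RPKM under imiquimod, against 2.26, 3.36 and 1.77 in control libraries, a difference of 4.8 ± 0.35 (adjusted p = 1.20e-08). Imiquimod replicate 3 was the highest for both genes, and the groups did not overlap. Slc39a8, a zinc importer, stood at 5.13, 2.87 and 8.31 RPKM under imiquimod, against 0.615, 0.712 and 0.481 in control libraries, higher by 2.33 ± 0.30. The zinc sensor gene Mtf1, which activates metallothioneins, differed by -0.01 ± 0.09 and did not pass. The list as a whole did not move one way: 5 of 12 tested genes rose and 4 fell, close to the shares of the whole table. The zinc transporter Slc30a7 stood at -0.64 ± 0.12. With haemoglobin left out and the libraries rescaled 7 fell.

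The promoters of both metallothioneins are shown since they were the 2 risen members of that list with the smallest p. Both lie on the plus strand of GRCm38.p6, Mt1 at chr8:94178839-94179138 and Mt2 at chr8:94172368-94172667. Capitals mark TGCACNC or TGCGCNC on either strand, the core of the metal response element, where N is any base.
Mt1: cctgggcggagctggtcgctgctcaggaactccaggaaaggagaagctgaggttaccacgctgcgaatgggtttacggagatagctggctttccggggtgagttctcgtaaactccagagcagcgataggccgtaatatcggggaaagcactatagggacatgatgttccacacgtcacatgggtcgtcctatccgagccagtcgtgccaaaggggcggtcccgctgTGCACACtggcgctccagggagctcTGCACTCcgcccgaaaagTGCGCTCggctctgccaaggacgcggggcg
Mt2: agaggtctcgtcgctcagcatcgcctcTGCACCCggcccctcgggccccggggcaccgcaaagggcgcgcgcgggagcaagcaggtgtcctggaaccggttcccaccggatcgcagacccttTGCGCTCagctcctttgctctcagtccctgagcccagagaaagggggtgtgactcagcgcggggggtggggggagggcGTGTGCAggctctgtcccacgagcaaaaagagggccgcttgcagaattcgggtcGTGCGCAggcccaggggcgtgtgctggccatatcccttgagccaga
Mt1 held 3 matches and Mt2 held 4. Among the 4 risen list members with a known promoter, 3 held the motif, which was also in the promoters of 39.8% of tested genes and 25.7% of all promoters, so that holding it once is common.

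Genes of granulocytes and of their precursors rose steeply and unevenly. S100a8, a calcium-binding alarmin that fills neutrophils, was at 2303, 11741 and 4900.4 RPKM under imiquimod, against 322, 534 and 351 RPKM in controls. Replicate 2 was the highest and replicate 1 the lowest of the imiquimod libraries, and all were above all controls. By group mean S100a8 was the most abundant transcript per length under imiquimod, followed by S100a9 and Hbb-b1, while Eef1a1, Cd74 and Rplp1 came first in controls. It did not lead in every library: Eef1a1 was higher in imiquimod replicate 1 (4770 RPKM) and Hbb-b1 in replicate 3 (8672 RPKM). Among genes of the azurophil granule, which promyelocytes fill, 11 of 12 rose with a median of 3.66. Mpo, myeloperoxidase, was at 74.4, 270.1 and 145 RPKM under imiquimod, against 9.67, 18.3 and 6.53 in control libraries, higher by 3.7 ± 0.48. Elane, neutrophil elastase, differed by 4.19 ± 0.54, and Ms4a3, a marker of granulocyte and monocyte progenitors, by 3.94 ± 0.49. All 12 of 12 genes of specific and gelatinase granules, which form later, rose with a median of 3.28. Camp, which encodes the cathelicidin, was at 676, 2778 and 1626 RPKM under imiquimod, against 115, 186 and 118 in control libraries, and Ngp at 869.9, 3431 and 2194 RPKM under imiquimod, against 149.9, 266 and 151 in control libraries. All 12 of 12 tested genes of mature neutrophils rose, by a median of 2.72, and Csf3r, the receptor of the neutrophil growth factor G-CSF, by 1.46 ± 0.36. For the 3 lists in turn, the medians in imiquimod replicates 1, 2 and 3 relative to the control mean were 2.57, 4.43 and 3.75, then 2.12, 4.22 and 3.43, then 1.64, 3.34 and 2.88, with replicate 2 the highest each time.

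The oxidase that granulocytes use to kill microbes rose much less. Of 8 subunits of the phagocyte NADPH oxidase 5 rose and 1 fell, with a median of 0.58 that stood at 0.04 after quantile normalization, where 2 rose and 2 fell. Without imiquimod replicate 2 3 rose, and without replicate 3 0 fell. Cybb, its membrane subunit, was at 81.8, 148 and 101 RPKM under imiquimod, against 48.5, 49.8 and 43.1 in control libraries, a difference of 1.18 ± 0.19. Eosinophil granule genes rose with the neutrophil ones: Prg2, the major basic protein, was at 25.7, 48.1 and 6.87 RPKM under imiquimod, against 1.34, 2.06 and 0.228 in control libraries, and 8 of 10 tested eosinophil genes rose. Prg2 was highest in replicate 2, and its groups did not overlap. The eosinophil receptor gene Il5ra fell by 0.80. Of 9 mast cell and basophil genes 6 rose and 1 fell, with Mcpt8, a basophil protease, at 13.3, 47.6 and 43.8 RPKM under imiquimod, against 2.69, 4.27 and 2.5 in control libraries, and Cma1, a mast cell chymase, at 1.06, 0.807 and 1.43 RPKM under imiquimod, against 7.31, 6.62 and 6.76 in control libraries.

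Monocyte, macrophage and complement genes rose as whole lists. All 18 of 18 monocyte and macrophage genes rose, by a median of 2.07. Csf1r, the receptor of the macrophage growth factor, was at 73.7, 84.6 and 97.7 RPKM under imiquimod, against 13.9, 15.5 and 14.4 in control libraries. Ms4a6d differed by 3.84 ± 0.27, and Ly6c2, a mark of inflammatory monocytes, was at 263, 908 and 308 RPKM under imiquimod, against 65.7, 69.5 and 67.8 in control libraries, with replicate 2 the highest. Ms4a7 had the smallest rise, 0.86.

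Fc receptors, which bind the constant part of antibodies, differed by member. Fcgr4, an activating receptor for IgG2 subclasses, was at 230.4, 159.9 and 162 RPKM under imiquimod, against 2.35, 2.72 and 1.86 RPKM in controls. It had the largest difference of all 11982 genes, 6.03 ± 0.25 (adjusted p = 5.81e-11). Fcgr1, the high-affinity receptor, was at 4.73, 16.4 and 5.93 RPKM under imiquimod, against 0.167, 0.318 and 0.307 in control libraries, with replicate 2 the highest. Fcgr3 differed by 2.61 ± 0.34, and Fcer1g, the signalling chain that the activating receptors share, by 2.9 ± 0.16. Fcgr2b, the inhibitory receptor that B cells also carry, stood at 32.9, 40.0 and 34.2 RPKM under imiquimod, against 45.9, 43.1 and 48.1 in control libraries. Its groups did not overlap, and its difference of -0.35 ± 0.18 did not pass (adjusted p = 0.0884) but passed as a fall after quantile normalization. Fcgrt, the receptor that protects IgG from breakdown, rose by 0.77 ± 0.12. In all 5 of 6 tested members rose.

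Complement genes followed. All 9 of 9 tested components rose, by a median of 2.54. C1qa, a chain of the first component that macrophages make, was at 137, 99.6 and 122 RPKM under imiquimod, against 9.56, 11.4 and 10.3 in control libraries, a difference of 3.45 ± 0.29. C3, the central component, was at 22.9, 84.9 and 54.2 RPKM under imiquimod, against 4.67, 7.83 and 4.44 in control libraries, and Cfb, of the alternative pathway, differed by 2.54 ± 0.40. Among complement receptors and regulators 7 of 8 rose. The exception was Cd55, an inhibitor of complement activation, which fell by 1.67, with 21.1, 16.5 and 21.3 RPKM under imiquimod, against 65.4, 57.7 and 66.8 in control libraries. Cr2, the receptor for C3 fragments on B cells and follicular dendritic cells, is described with the B cell genes.

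Red pulp macrophage and iron genes rose in every tested member. Their list of 17 genes had 17 that rose and a median of 1.77. Cd5l, a secreted macrophage protein, was at 13.8, 15.8 and 16.3 RPKM under imiquimod, against 0.914, 0.947 and 1.06 in control libraries, higher by 3.42 ± 0.25. Slc11a1, which pumps iron out of the phagosome, differed by 3.25 ± 0.15. Slc40a1, ferroportin, through which macrophages release iron, was at 23.4, 20.8 and 24.3 RPKM under imiquimod, against 5.01, 6.11 and 5.39 in control libraries. Hmox1, the enzyme that opens the haem ring, differed by 1.45 ± 0.25, and Spic, the transcription factor of red pulp macrophages, by 0.76 ± 0.16. All 3 imiquimod libraries were above all controls for Cd5l and Slc40a1. Of 17 lysosomal cathepsin and related genes 14 rose and 1 fell, with a median of 0.77. Ctsb, cathepsin B, was at 161, 171 and 190.4 RPKM under imiquimod, against 50.9, 50.8 and 49.6 in control libraries, and Ctsd, cathepsin D, differed by 1.06 ± 0.15. Ctso fell by 0.67. After quantile normalization 8 of the list rose and 3 fell.

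Lectins of the marginal zone and of its macrophages went the other way. Of 4 tested members 3 fell and 0 rose. Cd209a, a C-type lectin of dendritic cells and monocytes, was at 0.926, 0.718 and 1.47 RPKM under imiquimod, against 7.2, 7.94 and 7.58 in control libraries. Marco, the scavenger receptor of marginal zone macrophages, fell to 2.19, 2.45 and 2.07 RPKM in imiquimod libraries, against 3.89, 3.08 and 4.87 RPKM in controls. The remaining 8 of the 12 listed, among them Cd209b and Siglec1, were below the expression filter, so the marginal zone macrophages are seen through few genes.

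**Figure D3:**
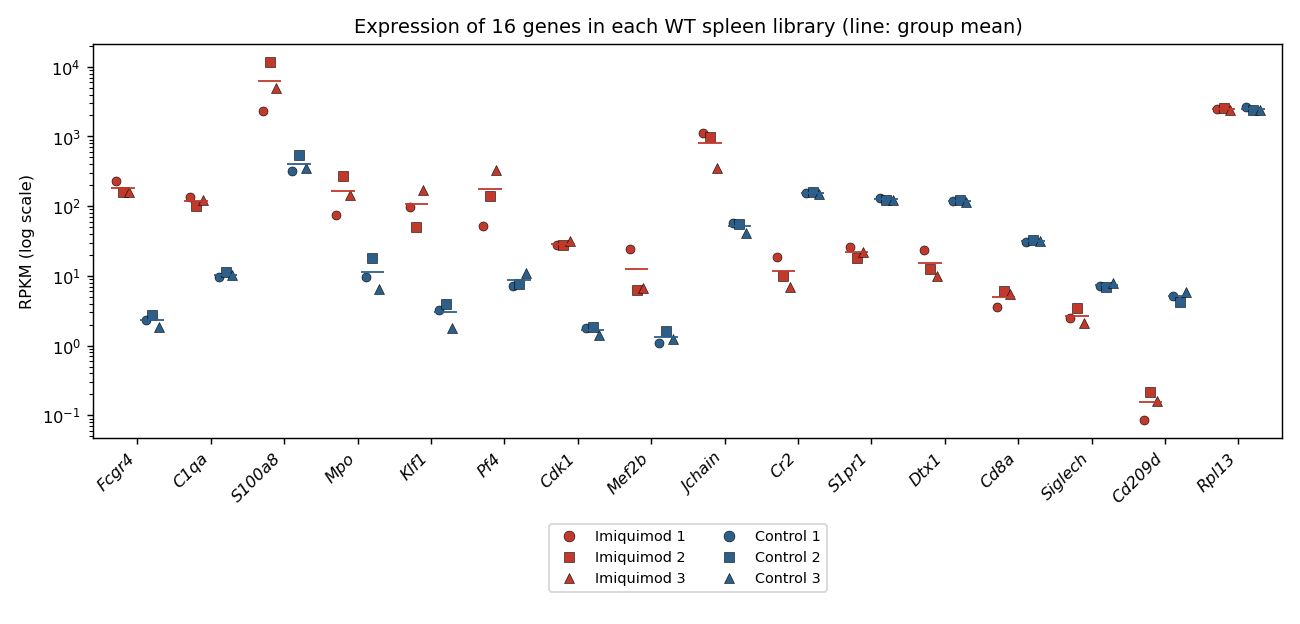
RPKM, on a log axis, of 16 genes in the 3 imiquimod libraries (left of each pair) and the 3 control libraries, each point a library and each bar a group mean. Fcgr4, Klf1 and Cdk1 are far higher and Cr2, S1pr1, Dtx1, Cd8a and Siglech lower under imiquimod without overlap, while Rpl13 overlaps.

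Red cell formation was the second large block. Klf1, the transcription factor that switches on adult globin genes, was at 98.8, 50.1 and 170.1 RPKM under imiquimod, against 3.24, 4.01 and 1.78 RPKM in controls. Replicate 3 was the highest and replicate 2 the lowest imiquimod library, and the difference was 4.81 ± 0.57 (adjusted p = 2.35e-06). Among 14 erythroid and progenitor transcription factors 10 rose and 2 fell. Gata1, the lineage factor, differed by 3.81 ± 0.47, and Gfi1b by 3.57 ± 0.37. Bcl11a, the repressor of fetal globin that B cells express too, fell by 0.82. Kit, the stem cell factor receptor of early progenitors, was at 4.66, 4.43 and 6.71 RPKM under imiquimod, against 3.44, 4.48 and 3.93 in control libraries, a difference of 0.36 ± 0.18 that did not pass (adjusted p = 0.0831, and 0.0493 without imiquimod replicate 2).

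Genes of the red cell membrane and enzymes rose in all 18 of 18 tested members, by a median of 3.61. Epor, the erythropoietin receptor, was at 23.3, 14.6 and 51.8 RPKM under imiquimod, against 1.82, 1.34 and 1.06 in control libraries, higher by 3.82 ± 0.69. Tfrc, the transferrin receptor that brings in iron, differed by 2.68 ± 0.69. For both genes the groups did not overlap and replicate 3 was the highest. Of 12 genes of haem synthesis and its transport 9 rose. Alas2, the erythroid first enzyme, was at 47.7, 61.8 and 223 RPKM under imiquimod, against 12.4, 9.17 and 19.4 in control libraries. Alas1, its counterpart in all cells, rose by 1.08 ± 0.18. Alas2 did not pass without imiquimod replicate 3 (adjusted p = 0.124), control replicate 1 (0.0605) or control replicate 2 (0.0801). Without imiquimod replicate 3, 6 of the 12 rose, and 5 with haemoglobin left out and the libraries rescaled.

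Haemoglobin transcripts were highest in imiquimod replicate 3, and their calls depended on single libraries of both groups. Hbb-b1, a beta globin, was at 2281, 3296 and 8672 RPKM under imiquimod, against 693, 506 and 1034 in control libraries, a difference of 2.5 ± 0.93 (adjusted p = 0.0246). Replicate 3 held more than replicates 1 and 2 together, and every imiquimod library was above every control. All 6 tested globin genes rose with a median of 2.49, but without imiquimod replicate 3 the median was 1.88 and 0 passed (adjusted p = 0.106 for Hbb-b1). Leaving out control replicate 1 or 2 also left 0, with Hbb-b1 at an adjusted p of 0.0539 and 0.0749. Hbb-b2 and Hbb-bt have identical values, and near-identical globin copies can share reads, so the single globin genes are uncertain. Erfe, which encodes the hormone by which erythroblasts lower hepcidin, was at 3.81, 2.34 and 21.6 RPKM under imiquimod and at or below 0.0941 RPKM in controls.

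Megakaryocyte and platelet genes had the same order of libraries. Of 16 tested genes 15 rose, by a median of 2.64, and the medians in replicates 1, 2 and 3 relative to the control mean were 1.44, 2.56 and 3.91. Pf4, platelet factor 4, was at 52.4, 142 and 333 RPKM under imiquimod, against 7.21, 7.62 and 11 in control libraries, a difference of 3.92 ± 0.61. Gp9, part of the receptor for von Willebrand factor, was at 18.2, 36.9 and 77.7 RPKM under imiquimod, against 2.56, 2.08 and 2.66 in control libraries. Itgb3, an integrin chain of platelets, differed by 0.30 ± 0.28 and did not pass. For Pf4 and Gp9 the groups did not overlap, and replicate 3 stood highest.

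B cell genes fell, and they fell by subset. Of 20 follicular B cell and B cell receptor genes 18 fell and 0 rose, with a median of -1.41. Cr2, which lowers the threshold for B cell activation by complement-tagged antigen, was at 18.4, 9.99 and 6.92 RPKM under imiquimod, against 153, 158 and 152 RPKM in controls. Replicate 1 kept more than replicates 2 and 3, all lay far below the controls, and the difference was -3.77 ± 0.45, the largest fall of all genes tested (adjusted p = 2.48e-06). Pax5, the B lineage factor, differed by -1.89 ± 0.32. Fcer2a, the low-affinity IgE receptor of mature B cells, was at 38.2, 19.4 and 26.6 RPKM under imiquimod, against 108, 98.8 and 113 in control libraries. Cd72 and Pou2af1 differed by -0.04 ± 0.16 and -0.12 ± 0.24 and did not pass.

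Genes of the marginal zone B cell and of NOTCH2, the receptor that specifies it, fell in 11 of 16 members and rose in 4. Dtx1, a target of Notch signalling, was at 23.5, 12.5 and 10.1 RPKM under imiquimod, against 118, 124 and 116 RPKM in controls, a difference of -3.01 ± 0.37. Cd1d1, which presents lipids and is high on marginal zone B cells, was at 9.76, 6.98 and 7.26 RPKM under imiquimod, against 33.2, 35.6 and 30.0 in control libraries. Notch2 itself fell by 0.92, Hes1 by 1.41 and Hes5 by 1.66, both targets of the pathway. Rbpj, the DNA-binding partner of Notch, rose by 0.34 ± 0.09, and the ligand gene Dll1 differed by -0.17 ± 0.17 and did not pass. Groups did not overlap for Dtx1 and Cd1d1. With haemoglobin left out and the libraries rescaled 1 rose, and Rbpj was not among them (adjusted p = 0.586).

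Germinal centre genes rose, most in 1 library. Of 14 tested genes 10 rose and 1 fell, with a median of 1.44 that became 1.0 without imiquimod replicate 1. Mef2b, a germinal centre factor, was at 24.5, 6.24 and 6.68 RPKM under imiquimod, against 1.07, 1.6 and 1.26 RPKM in controls. Replicate 1 held more than the other imiquimod libraries together, and the groups did not overlap (difference 2.57 ± 0.43, adjusted p = 6.41e-05). The master factor Bcl6 differed by -0.06 ± 0.19 and did not pass, and Cd38, which mouse germinal centre B cells lose, fell by 0.86.

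Plasma cell genes rose in 11 of 15 members and fell in 2. Jchain, which links IgM and IgA into polymers, was at 1129, 968 and 352 RPKM under imiquimod, against 57.9, 56 and 41.6 RPKM in controls, a difference of 3.81 ± 0.37. Replicate 3 was the lowest of the imiquimod libraries and still above the controls. Sdc1, syndecan 1, was at 13.3, 10.2 and 6.17 RPKM under imiquimod, against 1.97, 1.63 and 1.47 in control libraries, Xbp1, the factor of the secretory programme, differed by 1.79 ± 0.18, and Prdm1, which encodes BLIMP1, by 1.16 ± 0.17. Irf4, which B cells need to become plasma cells, fell by 0.69, and without imiquimod replicate 3 1 member fell. Of 22 genes for protein folding in the endoplasmic reticulum and its stress response 19 rose and 1 fell, with a median of 0.96. Sdf2l1 was at 125, 138 and 94.2 RPKM under imiquimod, against 30.7, 30.2 and 24.7 in control libraries, and Hspa5, the chaperone BiP, at 336, 322 and 269 RPKM under imiquimod, against 159, 153 and 153 in control libraries. Ddit3, which encodes the death factor CHOP, differed by -0.32 ± 0.15 and did not pass.

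The cytokines that keep B cells alive rose, while their receptors moved in both directions. Tnfsf13b, which encodes BAFF, was at 3.28, 6.76 and 5.53 RPKM under imiquimod and 0.697, 0.973 and 0.719 RPKM in controls, higher by 2.09 ± 0.23. Tnfsf13, which encodes APRIL, was at 4.87, 11.3 and 9.51 RPKM under imiquimod, against 0.978, 1.27 and 1.06 in control libraries, higher by 2.43 ± 0.26. Their receptor on plasma cells, Tnfrsf17 (BCMA), rose by 1.94 ± 0.22. The receptor on resting B cells, Tnfrsf13c, fell to 64.8, 47.7 and 41.9 RPKM in imiquimod libraries, against 139, 129.6 and 125 RPKM in controls. Tnfrsf13b (TACI), which marginal zone B cells carry at high level, was at 20.6, 16.1 and 13.8 RPKM under imiquimod, against 39, 40.0 and 35.2 in control libraries. All 5 genes had no overlap between the groups, against 78.1% of all genes.

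T cell genes fell as a list, with single activation genes rising. Of 20 genes of the T cell receptor and its signalling 19 fell and 0 rose, by a median of -0.76. Cd8a, the coreceptor of cytotoxic T cells, was at 3.59, 6.0 and 5.51 RPKM under imiquimod, against 30.3, 33 and 32.1 RPKM in controls, a difference of -2.57 ± 0.14. Cd4, the coreceptor of helper T cells, was at 51, 40.8 and 33.6 RPKM under imiquimod, against 52.9, 57.2 and 60.1 in control libraries, a difference of -0.45 ± 0.15 (adjusted p = 0.0148) that did not pass without imiquimod replicate 3 (0.0899) or control replicate 3 (0.0506). The groups did not overlap for either, and Cd8a fell by more log2 units than Cd4. Of 14 naive T cell genes 10 fell and 0 rose. Lef1, a factor of naive T cells, was at 8.43, 6.33 and 6.63 RPKM under imiquimod, against 34.2, 35.5 and 31.6 in control libraries, and Il7r, the receptor of the survival cytokine IL-7, at 17.1, 14 and 16.5 RPKM under imiquimod, against 47.9, 51.3 and 45.8 in control libraries. Without imiquimod replicate 1, 2 of the list rose.

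Among 17 checkpoint and follicular helper genes 11 rose and 3 fell. Pdcd1, which encodes the inhibitory receptor PD-1, was at 27.7, 27.8 and 19.7 RPKM under imiquimod, against 1.35, 1.8 and 2.09 RPKM in controls, a difference of 3.51 ± 0.20. Lag3 was at 27.2, 33.4 and 19.4 RPKM under imiquimod, against 1.57, 2.03 and 1.71 in control libraries, and Tigit differed by 3.01 ± 0.18. Il21, the cytokine of follicular helper T cells, was at 2.25, 1.36 and 0.975 RPKM under imiquimod, against 0.0272, 0.0575 and 0.040 in control libraries. In all of these every imiquimod library was above every control. Havcr2 differed by -0.07 ± 0.16 and did not pass. Of 8 tested regulatory T cell genes 3 rose and 1 fell. Foxp3 was at 5.69, 5.29 and 3.18 RPKM under imiquimod, against 3.65, 3.98 and 4.11 in control libraries, which did not pass (adjusted p = 0.35, and 0.0408 without imiquimod replicate 3).

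Cytotoxic genes split. Gzmk, a granzyme of memory-like CD8 T cells, was at 2.32, 4.47 and 1.77 RPKM under imiquimod, against 0, 0.381 and 0.12 in control libraries, higher by 2.29 ± 0.25. Gzma fell to 15.5, 18.4 and 12.9 RPKM in imiquimod libraries, against 68, 64.7 and 62.6 RPKM in controls, and Prf1, perforin, fell by 1.71. The groups did not overlap for Gzmk or Gzma. In all 3 of 11 tested granule and regulator genes rose and 5 fell, against 40.3% and 33.2% of all genes. These counts do not set the list clearly apart from the whole table. Without imiquimod replicate 2 1 rose. Among 13 natural killer receptor genes 11 fell and 1 rose. Ncr1 was at 3.45, 2.8 and 3.26 RPKM under imiquimod, against 18.3, 17.9 and 19.9 in control libraries, and Klrd1 differed by -2.19 ± 0.10. Ly49 genes are near-identical copies that can share reads, so Klra4 (-1.97) and Klra7 (-1.12) are uncertain one by one.

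Dendritic cell genes moved in both directions. Of 13 tested genes of plasmacytoid dendritic cells, the cells that make most type I interferon, 8 fell and 5 rose, or 3 after quantile normalization. Siglech was at 2.47, 3.44 and 2.11 RPKM under imiquimod, against 7.26, 6.98 and 7.95 in control libraries, a difference of -1.34 ± 0.14. Tcf4, the factor that specifies them, fell by 0.75, and Ccr9 by 1.82. Il3ra and Lair1, which myeloid cells also express, rose by 1.7 ± 0.13 and 1.49 ± 0.13. The groups of Siglech did not overlap. For conventional dendritic cells 6 of 16 genes rose and 4 fell, close to the shares of the whole table, and the lists were not tested against each other. Batf3, a factor of cross-presenting cells, rose by 0.86 ± 0.19, Clec9a, a receptor of the same cells, differed by -0.23 ± 0.14 and did not pass, and Clec4a4, a lectin of the other subset, fell by 1.14. Flt3, the growth factor receptor of dendritic cell progenitors, differed by -0.11 ± 0.18 and did not pass.

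The receptors that imiquimod and related ligands reach did not move together. Of 22 tested Toll-like receptors and adaptors 7 rose and 10 fell, against 40.3% and 33.2% of all genes. Tlr7, the target of imiquimod, was at 7.3, 9.1 and 7.66 RPKM under imiquimod, against 4.78, 5.31 and 4.98 RPKM in controls, a rise of 0.62 ± 0.14 (adjusted p = 0.000841). Tlr8, the neighbouring RNA sensor, was at 6.95, 7.49 and 8.86 RPKM under imiquimod, against 0.695, 0.741 and 0.542 in control libraries, a rise of 2.83 ± 0.13. Tlr13, a sensor of bacterial ribosomal RNA, was at 9.47, 17.6 and 12.6 RPKM under imiquimod, against 2.48, 2.75 and 2.12 in control libraries. These 3 receptors had no overlap between the groups, and Tlr8 was lower than Tlr7 in controls and close to it under imiquimod. Tlr9, the DNA sensor, fell to 15.8, 11 and 13.1 RPKM in imiquimod libraries, against 21.5, 21.8 and 20.1 RPKM in controls, and Tlr3, the double-stranded RNA sensor, fell by 0.90. Unc93b1, which carries these receptors to the endosome, fell by 0.44. Myd88, the adaptor of TLR7, rose by 0.86 ± 0.14, while Traf6 and Traf3, which act below it, fell by 0.54 and 0.79. Slc15a3, an endolysosomal transporter of histidine and peptides, rose by 1.57 ± 0.10, and Slc15a4, its counterpart that TLR7 signalling needs, differed by -0.25 ± 0.11 and did not pass (adjusted p = 0.0565, and 0.0102 as a fall without imiquimod replicate 1).

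Sensors in the cytosol and interferon-stimulated genes rose in part. Of 18 sensor genes 11 rose and 4 fell: Ifih1, which encodes the RNA sensor MDA5, rose by 1.42 ± 0.14, and Ddx58, which encodes its relative RIG-I, fell by 1.01. Mavs, the adaptor of both RNA sensors, fell by 0.69, and Mb21d1, which encodes the DNA sensor cGAS, rose by 0.74 ± 0.11. Type I interferon-stimulated genes were higher in 21 of 30 tested members and lower in 1, with a median of 1.03. Their medians relative to the control mean were 0.83, 1.77 and 0.23 in imiquimod replicates 1, 2 and 3, so the list was highest in replicate 2 and nearly level in replicate 3. Without replicate 2 the median was 0.57 with 15 risen, without replicate 3 it was 1.33 with 23 risen, and after quantile normalization 14 rose and 4 fell. Ifitm3, which blocks virus entry, was at 156, 509 and 221 RPKM under imiquimod, against 32, 32.6 and 27.8 RPKM in controls, with no overlap (difference 3.06 ± 0.32). Rsad2, viperin, was at 7.61, 20.9 and 31.5 RPKM under imiquimod, against 1.88, 1.25 and 2.53 in control libraries. Isg15, a ubiquitin-like modifier, was at 14.3, 36.5 and 18.2 RPKM under imiquimod, against 8.38, 7.65 and 6.78 in control libraries. Stat2, a part of the complex that drives these genes, fell by 0.53. Isg15 was highest in replicate 2 and Rsad2 in replicate 3, and neither overlapped between the groups. Rsad2 did not pass without imiquimod replicate 3 (adjusted p = 0.0671) or control replicate 2 (0.0524). Isg15, at an adjusted p of 0.0364, did not pass without imiquimod replicate 2 (0.151), imiquimod replicate 3 (0.0532) or control replicate 1 (0.0596), 2 (0.0706) or 3 (0.0854).

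The promoter of Ifitm3 is shown because it was the risen interferon-stimulated gene with the smallest p that held the motif looked for. It lies at chr7:141010695-141010994, minus strand (GRCm38.p6, RefSeq), again from 250 bases before to 50 after the start, and capitals mark a pair of GAAA blocks set apart by any 2 bases, on either strand, the core of the interferon-stimulated response element.
Ifitm3: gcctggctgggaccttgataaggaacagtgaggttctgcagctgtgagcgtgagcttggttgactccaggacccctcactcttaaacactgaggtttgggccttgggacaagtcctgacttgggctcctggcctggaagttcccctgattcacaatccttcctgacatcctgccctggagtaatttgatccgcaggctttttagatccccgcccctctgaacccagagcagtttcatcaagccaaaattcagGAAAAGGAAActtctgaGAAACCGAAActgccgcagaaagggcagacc
Ifitm3 held 2 matches. Of the 21 risen list members 14 had a promoter in the table and 8 of these held the motif, which 4.09% of tested genes and 3.44% of all promoters held. The promoters of Lgals3bp, an interferon-stimulated gene, and of the haem enzymes Alad and Alas1 were also looked at and held 0 matches to their lists' motifs, the same GAAA pair and AGATAA, which GATA factors bind, so they are not printed. AGATAA was in 2 of the 7 risen haem genes with a promoter, 8.12% of tested genes and 11.2% of all promoters.

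Interferon-inducible GTPases and their regulators showed the same unevenness. Iigp1, an immunity-related GTPase, was at 13.2, 25.6 and 4.7 RPKM under imiquimod, against 1.04, 1.64 and 1.1 in control libraries. Replicate 2 held the most and replicate 3 the least under imiquimod, and the groups did not overlap. Of 18 GBP and IRG genes 11 rose and 1 fell, with medians in the imiquimod libraries of 0.89, 1.34 and -0.02, with 6 risen without replicate 2 and 7 after quantile normalization. GBP genes are close copies that can share reads. Irf7, which amplifies type I interferon, was at 25.2, 50.5 and 15.9 RPKM under imiquimod, against 13.6, 13.3 and 13.5 RPKM in controls (difference 1.0 ± 0.28, adjusted p = 0.00469), again with replicate 2 the highest. It was the only one of 10 interferon regulatory factors that rose, and 4 fell, among them Irf5, which acts below TLR7, at -0.44 ± 0.13. Without imiquimod replicate 3, 3 rose. Among 19 STAT, JAK and SOCS genes 5 rose and 8 fell, or 3 rose after quantile normalization, with Socs2 at 1.18 ± 0.11, Socs3 at 0.84 ± 0.21, Stat4 at -1.16 ± 0.11 and Jak1 at -0.85 ± 0.10.

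MHC class II presentation genes fell for the most part, and fewer class I genes passed in either direction. Of 14 MHC class II presentation genes 10 fell and 2 rose, or 1 after quantile normalization. Cd74, the invariant chain, was at 2760.4, 1999.8 and 1907 RPKM under imiquimod, against 4445, 3852 and 3427 in control libraries, a difference of -0.83 ± 0.19, and H2-Aa fell by 1.06. Ciita, the master regulator of the class, fell by 0.76, and H2-Ob, a B cell modulator of peptide loading, by 1.73. Of 17 class I and immunoproteasome genes 6 rose and 2 fell, with a median of 0.23 that turned to -0.18 after quantile normalization, where 1 rose and 6 fell. Without imiquimod replicate 2 2 rose, without control replicate 3 3 rose, and without imiquimod replicate 3 0 fell, so the direction of class I genes is not settled. Psmb9, an immunoproteasome subunit, was at 239.7, 305 and 175 RPKM under imiquimod, against 136, 133 and 115 in control libraries, with no overlap, and after quantile normalization it did not pass (adjusted p = 0.061).

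Cytokine genes as a list did not stand apart from the whole table. Of 17 tested cytokines 7 rose and 6 fell, close to the 40.3% and 33.2% of all genes. The median of 0.13 turned to -0.10 after quantile normalization and to -0.48 with a stricter expression filter. Il6, Il12b, Csf2 and Csf3 were below the expression filter. Il10 was at 2.67, 2.35 and 1.3 RPKM under imiquimod, against 0.133, 0.0616 and 0.17 in control libraries, higher by 2.03 ± 0.21. Il27 was at 2.19, 3.44 and 1.95 RPKM under imiquimod, against 0.246, 0.456 and 0.18 in control libraries. Ifng, the type II interferon, was at 1.91, 3.88 and 0.815 RPKM under imiquimod, against 0.894, 0.831 and 1.02 in control libraries, which did not pass (adjusted p = 0.0512, and 0.00215 without imiquimod replicate 3). For Il10 and Il27 every imiquimod library was above every control. Lta and Ltb, the lymphotoxins that keep lymphoid tissue organised, fell by 1.34 and 0.92. Of 16 inflammasome and interleukin-1 family genes 8 rose and 5 fell, against 40.3% and 33.2% of all genes. Il1b was at 17.2, 39.6 and 40.3 RPKM under imiquimod, against 11.4, 10.6 and 12.8 in control libraries, and its antagonist Il1rn was higher by 1.2 ± 0.30. Without imiquimod replicate 1 or control replicate 1, 3 of that list fell.

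Of 12 tested inflammatory chemokines, out of 20 listed, 10 rose and 1 fell, against 40.3% and 33.2% of all genes. Members below 1 RPKM in every control, such as Ccl8 and Cxcl10, met the filter only through other libraries in which they were higher. The count of rises is thus partly set by the filter. Ccl8 was at 2.16, 6.47 and 2.92 RPKM under imiquimod, against 0, 0.0393 and 0.0622 in control libraries, and Cxcl10, a ligand of CXCR3, at 4.95, 6.83 and 2.75 RPKM under imiquimod, against 0.512, 0.749 and 0.751 in control libraries. Ccl9, a monocyte chemokine, differed by 2.27 ± 0.33. Without control replicate 2 or 3, 0 fell. For Ccl8 and Cxcl10 the groups did not overlap, and replicate 2 was the highest for Cxcl10.

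Some genes that place lymphocytes within the spleen differed strongly. S1pr1, which lets lymphocytes follow sphingosine-1-phosphate out of the tissue, was at 26, 17.8 and 22.4 RPKM under imiquimod, against 129, 125 and 124 RPKM in controls, a difference of -2.5 ± 0.17 (adjusted p = 6.43e-09). S1pr2, which holds B cells in the germinal centre, was at 15.6, 7.78 and 8.51 RPKM under imiquimod, against 1.92, 1.82 and 2.31 in control libraries, a rise of 2.08 ± 0.26. S1pr3, a marginal zone receptor, fell by 3.2. Sphk1, a kinase that makes the lipid, was at 11.3, 6.48 and 14.4 RPKM under imiquimod, against 0.66, 0.586 and 0.152 in control libraries, and Mfsd2b, which exports it from red cells and platelets, rose by 2.81 ± 0.48. The other kinase Sphk2 and the lyase Sgpl1 differed by -0.05 ± 0.07 and -0.05 ± 0.09 and did not pass. Spns2, the endothelial exporter, fell by 1.28. All of S1pr1, S1pr2 and Sphk1 had no overlap between the groups. Over the list of 11 genes 3 rose and 4 fell, or 7 fell after quantile normalization, against 40.3% risen and 33.2% fallen of all genes as deposited. Its median was -0.05, so as a list it did not stand apart from the whole table.

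Receptors for the follicle and the T cell zone fell while the follicular chemokine rose. Cxcl13, the chemokine of B cell follicles, was at 3.8, 2.75 and 0.849 RPKM under imiquimod, against 0.112, 0.294 and 0.301 RPKM in controls, with replicate 3 the lowest imiquimod library. Its receptor Cxcr5 was at 67.4, 45.2 and 38.4 RPKM under imiquimod, against 128, 122 and 120.4 in control libraries. Ccr7, the receptor that leads to the T cell zone, fell by 1.84, and Gpr183, the oxysterol receptor that positions B cells, by 1.66. Ackr3, a scavenger of CXCL12 on marginal zone B cells, was at 1.05, 0.77 and 1.49 RPKM under imiquimod, against 15.8, 17.2 and 14.1 in control libraries. Among 19 chemokine and migration receptors 8 rose and 8 fell, against 40.3% and 33.2% of all genes. Those that rose included Cx3cr1 and Ccr2 of monocytes and Ccr3 of eosinophils, and those that fell included Ccr7, Ccr9 and Vipr1. Cxcr3, the receptor of CXCL10, rose by 1.18 ± 0.13, and Cxcr4 differed by 0.07 ± 0.13 and did not pass.

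Endothelial genes rose in 8 of 9 tested members of the 16 listed, against 40.3% of all genes. The count is partly set by the filter. A member below 1 RPKM in every control, such as Egfl7, was tested only through other libraries in which it was higher. The marker Pecam1, the only endothelium marker at 1 RPKM or more in every WT library, had overlapping groups. It was at 42.5, 34.2 and 48.6 RPKM under imiquimod, against 48.4, 48.5 and 46.7 in control libraries. Egfl7, a secreted vascular protein, was at 4.57, 4.49 and 10.7 RPKM under imiquimod, against 0.373, 0.433 and 0.43 in control libraries, and Plvap, a protein of fenestrated vessels, rose by 2.0 ± 0.31. Several of the list, such as Vwf and Esam, are also made by megakaryocytes or other blood cells, whose list rose with them, and the part of those cells in the result was not tested. Fabp4 and Pparg, listed as fat cell genes, were at 12.1, 8.73 and 8.56 RPKM under imiquimod, against 0.318, 0.413 and 0.653 in control libraries, and at 10.7, 7.15 and 7.38 RPKM under imiquimod, against 0.298, 0.528 and 0.547 in control libraries. Both are also known from macrophages, and Adipoq and Plin1 were below the expression filter.

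Clock and stress genes were followed because they move with handling, feeding and time of day. Of 15 tested clock and output genes 4 rose and 10 fell. Nfil3, an output repressor that immune cells also induce, was at 6.99, 17.6 and 10.2 RPKM under imiquimod, against 1.91, 2.23 and 1.76 in control libraries, higher by 2.21 ± 0.24. Dbp, an output gene with a strong daily rhythm, fell by 1.07, and Nr1d2 by 1.26. The sources used here do not state the hour of collection, so its part in these differences was not tested. Of 15 immediate early genes 7 rose and 3 fell, the median of 0.17 turning to -0.07 with haemoglobin left out and the libraries rescaled, where 6 fell. Fos was at 3.5, 7.15 and 7.1 RPKM under imiquimod, against 1.66, 1.78 and 1.69 in control libraries, and Egr1 differed by -0.30 ± 0.19 and did not pass. Of 13 glucocorticoid-responsive genes 7 rose and 5 fell, with Fkbp5 at 1.11 ± 0.18 and Tsc22d3 at -0.14 ± 0.13, which did not pass. The receptor gene Nr3c1 fell by 0.96.

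The 3 imiquimod libraries differed from each other by lineage. Replicate 1 was the highest for germinal centre genes, with a list median of 2.64 above the control mean, against 0.94 and 1.10 in replicates 2 and 3. Replicate 2 was the highest for granulocyte and interferon genes, and replicate 3 for red cell, globin and platelet genes and the lowest for interferon genes and Jchain. The 10 genes with the widest range among the imiquimod libraries were Stfa2, Tmcc2, Stfa2l1, Erfe, Rtp4, Thbs1, Prg2, Saa3, Ly6g6f and Pf4. Tmcc2, an erythroid transmembrane protein gene, was at 14, 32.6 and 133 RPKM under imiquimod, against 4.56, 2.06 and 3.67 in control libraries, and Saa3, an acute phase serum amyloid, at 3.56, 25.5 and 5.88 RPKM under imiquimod, against 1.22, 1.02 and 0.658 in control libraries. Rtp4, an interferon-stimulated gene, was at 6.42, 23.2 and 2.81 RPKM under imiquimod, against 3.38, 2.26 and 2.3 in control libraries. The groups of Rtp4 overlapped and it did not pass without imiquimod replicate 2 (adjusted p = 0.0744), nor did Tmcc2 without imiquimod replicate 3 (0.104) or control replicate 2 (0.0638). These genes take their maximum in replicate 2 (Stfa2, Stfa2l1, Rtp4, Prg2 and Saa3) or in replicate 3 (Tmcc2, Erfe, Thbs1, Ly6g6f and Pf4). The labels do not say what sets the 3 libraries apart.

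**Figure D4:**
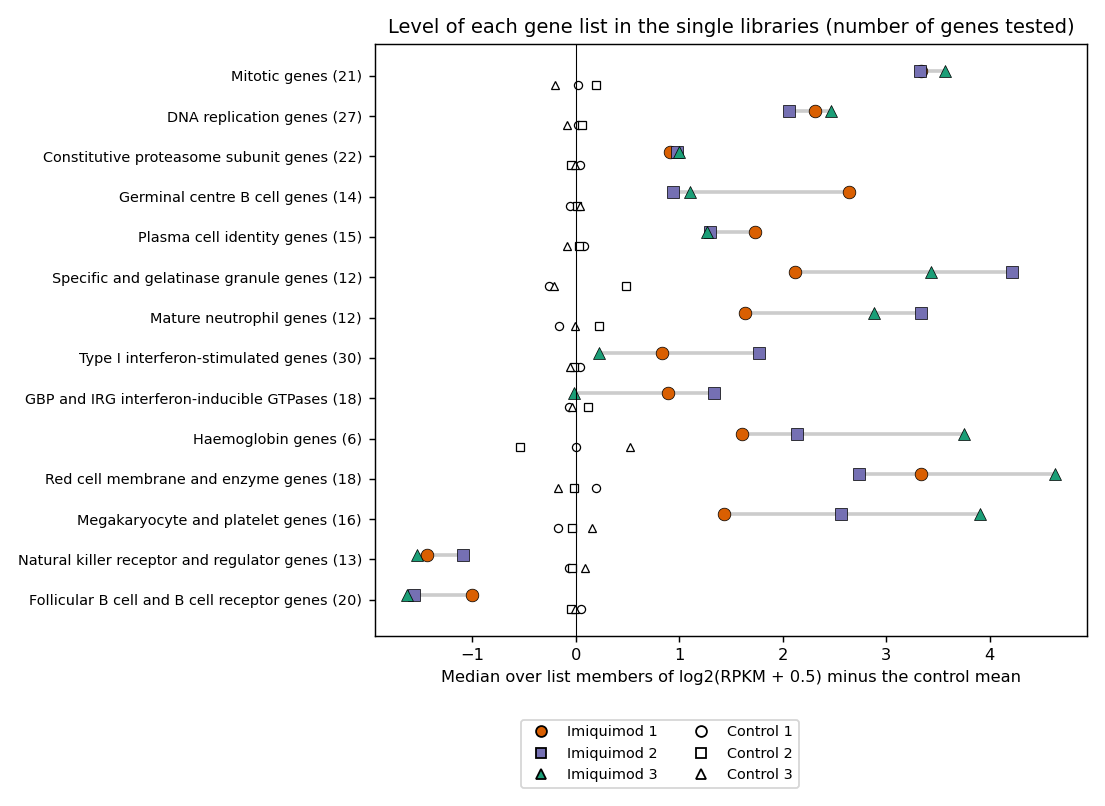
Median deviation from the control mean, in log2 units, of 14 gene lists in each of the 3 imiquimod libraries, one symbol per library. The mitotic list lies between 3.32 and 3.57 in all of them, while the germinal centre list spans 0.94 to 2.64 and the megakaryocyte list 1.44 to 3.91.

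The deiminase genes that the study deletes in its other mice were measured here in intact animals. Padi4, whose enzyme citrullinates histones in neutrophils, was at 8.16, 25.3 and 16.9 RPKM under imiquimod, against 1.23, 2.26 and 1.2 in control libraries, a rise of 2.97 ± 0.30. Padi2, the other deiminase gene above the filter, was at 5.23, 4.74 and 5.15 RPKM under imiquimod, against 9.77, 10.5 and 9.77 in control libraries, a fall of 0.92. Replicate 2, the highest in neutrophil genes, was the highest for Padi4, and neither gene overlapped between the groups.

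The response to imiquimod in knockout spleens was compared with the one in WT spleens, gene by gene, by the interaction term in the same fit. For Pad2-/- minus WT 4 of 11982 genes passed (0.0334%) and for Pad4-/- minus WT 8 passed (0.0668%). In the comparison of Pad2-/- these were Angptl7, Zfp534, Zfp990 and Cenps. The first 3 were below 1 RPKM in all 6 WT libraries and were tested only through knockout libraries in which they are higher, so their WT response rests on values under the pseudocount. With a filter of 5 RPKM 1 gene passed for Pad2-/-. Cenps, a centromere protein gene, had a response of 0.62 in Pad2-/- and 1.97 in WT, a difference of -1.34 ± 0.20. In the comparison of Pad4-/- the genes were Padi4 itself, Cd8a, Cd8b1, Gzmm, Ctsw, Klrd1, Samd3 and Rn4.5s. Cd8a had a response of -0.97 in Pad4-/- and -2.57 in WT, a difference of 1.6 ± 0.19 (adjusted p = 0.00347), and Klrd1 one of -1.12 in Pad4-/- and -2.19 in WT, a difference of 1.06 ± 0.14 (adjusted p = 0.00364). Both genes thus had a negative response of larger size in WT than in Pad4-/- spleens, larger than the spread between libraries. In Pad2-/- minus WT they moved the same way without passing. Cd8a had a response of -1.50 in Pad2-/-, a difference of 1.08 ± 0.19 (adjusted p = 0.0812), and Klrd1 differed by 0.55 ± 0.14 (0.463). A gene that missed the threshold is not shown to respond alike.

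The number of interaction calls depended on single WT libraries and on the weighting of libraries. Knockout libraries were not left out in turn, so dependence on them was not tested. Haemoglobin genes held 20.2%, 1.57% and 18.4% of the RPKM sum in Pad2-/- imiquimod libraries, and 12.2%, 0.721% and 2.43% in those of Pad4-/-. Without WT imiquimod replicate 2, 756 genes passed for Pad4-/- minus WT, 40 with a response that was higher in Pad4-/- and 716 with one that was lower, and 7 passed for Pad2-/- minus WT. Leaving out replicate 1 or 3 in place of 2 gave 9 and 7 genes for Pad4-/- and 4 and 3 for Pad2-/-, and leaving out control replicate 1 or 3 gave 4 genes each for Pad4-/-. With libraries weighted by their quality in limma, 665 genes passed for Pad4-/- and 1737 for Pad2-/-, but the estimate of the weights did not converge and gave imiquimod replicate 3 of Pad2-/- a weight of 59.0, so these counts are not reliable. A gene-by-gene estimate of the weights, added after the data were seen, gave that library 3.6 and passed 366 genes for Pad4-/- and 412 for Pad2-/-. Without WT imiquimod replicate 2, 5 of 11 cytotoxic granule genes and 5 of 13 natural killer genes had a higher response in Pad4-/- than in WT. Over all 11982 genes 40 did. With all libraries 2 of the 11 and 1 of the 13 did. In the fit without that library 8 of 25 oxidative phosphorylation genes, 6 of 27 replication genes and 6 of 22 proteasome genes had a lower one. So did 6 of 19 cholesterol synthesis genes and 5 of 14 serine and one-carbon genes, against 716 of all 11982 genes. With all libraries the count was 0 in each of these lists.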

How the data were processed

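Poly(A) RNA was sequenced from frozen spleens, per the labels' protocols. The tools named include bcl2fastq 1.17.1 and TopHat2 2.1.0, with the build mm10, per the submitters' processing notes. The sources used here do not state the counting program or its strand setting. RPKM is the unit that the authors deposited, in 1 column per library, and depth in reads is unknown. Genes with at least 1 RPKM in at least 3 spleen libraries were tested with limma 3.58.1 (R 4.3.3; lmFit, eBayes with trend) on log2(RPKM + 0.5), which understates changes of low genes. All 18 spleen libraries entered 1 fit with 6 groups, two-sided, with Benjamini-Hochberg adjustment over the 11982 genes. The labels do not say that replicates are separate animals, so a p-value reflects only how much these samples vary, possibly for technical reasons. The model was tested on simulated data. The 71 gene lists and the members were chosen with earlier results of these data known, so no list was tested and lists are described by counts and medians. The genes named are the 12 largest rises and falls, the defining members, up to 4 members of smallest p and further members of each list, the most abundant and most variable genes, those with an interaction and those with the narrowest intervals near 0. Promoters are RefSeq sequences, and 9321 of 11982 tested genes had one. Results for a few of these genes are left out here. Figures were drawn with matplotlib 3.10.9.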

Additional observations from a re-analysis of the deposited data

Results flagged for a closer look

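In 12 genes the response to imiquimod differed between a knockout and WT by the interaction term of the limma fit. For Pad2-/- minus WT, Angptl7 differed by 1.91, with a response of 1.96 in Pad2-/- and 0.05 in WT. Zfp534 and Zfp990 differed by -1.85 and -1.61. All 3 genes were below 1 RPKM in all 6 WT libraries and were tested only through knockout libraries, so their WT response rests on values under the pseudocount of 0.5. Cenps differed by -1.34. For Pad4-/- minus WT, Cd8a differed by 1.6 and Cd8b1 by 1.91, the paired chains of the CD8 coreceptor. Gzmm, a granzyme, differed by 1.42, Ctsw, a cathepsin of cytotoxic cells, by 1.05, Klrd1, a natural killer receptor chain, by 1.06, and Samd3 by 0.91. Each of these 6 genes fell in WT and had a negative response of smaller size in Pad4-/-. For Pad2-/- minus WT none of the 6 passed, with Cd8a at 1.08, Cd8b1 at 1.11, Ctsw at 0.80, Klrd1 at 0.55, Samd3 at 0.35 and Gzmm at -0.12. Padi4, the deleted gene, differed by -2.91, and the small RNA gene Rn4.5s by -2.70. Groups of 3 libraries were not searched for single outlying libraries.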

How the results depend on the processing

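Of the 267 genes named, 231 passed, and 219 of these passed in the same direction under every alternative run on them. Scaling had the largest effect on the split. Quantile normalization gave 3868 genes risen and 5390 fallen, 1414 of them by more than 2-fold, and rescaling without haemoglobin gave 3410 and 5660, with 1679 fallen by more than 2-fold, while median-ratio scaling gave 4589 and 4550. The cause was not tested, and without read counts the scale cannot be set here.

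After quantile normalization these medians turned negative: chaperones -0.043, ribosomal proteins -0.17, cytokines -0.10 and class I genes -0.18. Rescaled without haemoglobin, those of ribosomal proteins (-0.19), immediate early genes (-0.073), cytokines (-0.16) and class I genes (-0.066) did, and with a filter of 5 RPKM that of cytokines (-0.48). Among named genes that did not pass as deposited, these turned from a positive difference to a passed fall after quantile normalization: Angptl7 (-0.33), Cxcr4 (-0.39), Dazap2 (-0.42), Eif4g2 (-0.40), Hnrnpf (-0.47), Rplp1 (-0.55) and Rps10 (-0.21). Rescaled without haemoglobin, Dazap2 (-0.24), Eef1a1 (-0.24), Eif4g2 (-0.27), Hnrnpf (-0.20), Rpl13 (-0.29), Rplp1 (-0.24) and Rps10 (-0.26) did. A further 14 named genes with a negative difference that did not pass as deposited passed as falls in each of these settings, among them Aes, Ccnd2, Clec9a, Ddit3, Fcgr2b, Ppp6r1, Rpl19, Sfpq, Sgpl1, Slc15a4, Sphk2 and Tsc22d3 in both.

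Leaving out each WT replicate in turn gave 4511 to 4799 genes risen, 3635 to 3941 fallen, 1895 to 2102 risen by more than 2-fold and 793 to 1067 fallen by more than 2-fold. It gave 3 to 7 interaction genes for Pad2-/- and 4 to 756 for Pad4-/-, the highest for both without WT imiquimod replicate 2. Knockout libraries were not left out in turn. For Pad2-/- minus WT, 2 genes passed with a pseudocount of 0.1, 1 with a filter of 5 RPKM, 7 rescaled without haemoglobin and 1737 with array weights. For Pad4-/- minus WT, 665 passed with array weights. The array weights did not converge, and gene-by-gene array weights, chosen after seeing the data, passed 412 genes for Pad2-/- and 366 for Pad4-/-. The cause was not tested.

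Without the expression filter 5686 genes rose and 4853 fell, and with a filter of 5 RPKM 3813 and 2842. Deviations of same-numbered imiquimod and control libraries correlated at 0.034, 0.066 and -0.036 over genes. With 3 libraries per group these values cannot show whether the replicate numbers pair the samples. With the replicate block 4834 genes rose and 3980 fell, 2006 and 892 of them by more than 2-fold, with 4 and 7 interaction genes for Pad2-/- and Pad4-/-.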
